A study of Homo sapiens with 6 samples.

Results

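The HOX genes encode homeodomain transcription factors that lie side by side in the HOXA, HOXB, HOXC and HOXD clusters. Their accessibility was read here from ATAC-seq of wild-type hTERT-RPE1 cells, a human retinal pigment epithelial line immortalised with telomerase, for which no treatment is named. ATAC-seq marks accessible chromatin, because the Tn5 enzyme cuts and tags DNA where it is not packed away. The members are all protein-coding genes of the RefSeq table (GRCh38.p14) whose symbol is HOX, a letter from A to D and a number. They number 39 of 19974 protein-coding genes on chromosomes 1 to 22 and X. Regions were all peaks from the first to the last gene of each cluster with 20000 bp added on each side, 63 of 142865 in the R1 list and 50 of 134351 in the R2 list. R1 and R2 are sets of 3 libraries each, with the same line and genotype in both. What distinguishes the sets, and whether libraries came from separate cultures, is not stated. Each set was deposited as 1 merged peak list, so no spread between libraries could be computed and no test across samples was possible. The values below are therefore descriptions of 2 pooled lists. The median peak had 71 fragments over its summit in each list, and the lowest local background was 7.93 fragments (R1) and 7.79 fragments (R2), as recovered from each peak's fold and p-value. The word fragments stands here for the unit counted, which could also be reads or cut ends.

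Paralogous HOX genes share a number across clusters, so that HOXA13, HOXB13, HOXC13 and HOXD13 form group 13. In vertebrate embryos the genes are switched on in order along each cluster, low numbers first and towards the head, high numbers later and towards the tail, and the pattern gives cells a memory of their position along the body. Polycomb complexes keep silent members in compact chromatin, and trithorax complexes maintain active ones. Within a cluster all matched members are transcribed in the same direction, towards lower coordinates in HOXA and HOXB and towards higher coordinates in HOXC and HOXD, so the strand of the genes without an entry in the start table was taken from their neighbours.

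Most HOX start sites had no open region. A gene was called when a region of both lists lay within 1000 bp of a listed start. By this rule 11 of the 39 HOX genes were called (28.2%), against 74.3% of the 15812 protein-coding genes with a listed start. A further 2 had a region in R1 alone and 1 in R2 alone, and 25 had none. The RefSeq start table held 20 of the 39 genes, and for the other 19 the upstream end of the gene interval served as the start, so a start inside such an interval was missed. Among the 20 genes with a listed start, 6 were called. In the R1 list alone 13 HOX genes were called and in the R2 list alone 12, against 75.7% and 75.3% of protein-coding genes.

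The sequences just upstream of the start are shown for the members that carry this contrast, being up to 2 of the strongest called genes per cluster with an entry in the table and the first in gene order with no region. Each is the 250 bases before the start on the gene's own strand, 5′ to 3′, from RefSeq (GRCh38.p14), with every CpG in capitals, since dense CpG is common at open promoters. HOXB5, HOXB7, HOXB9 and HOXC8 have no entry.
HOXA3: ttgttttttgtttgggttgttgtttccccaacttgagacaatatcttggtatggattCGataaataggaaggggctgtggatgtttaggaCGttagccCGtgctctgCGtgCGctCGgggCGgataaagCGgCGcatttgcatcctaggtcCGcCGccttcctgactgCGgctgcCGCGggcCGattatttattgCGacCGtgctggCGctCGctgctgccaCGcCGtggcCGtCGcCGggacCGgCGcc
HOXA13: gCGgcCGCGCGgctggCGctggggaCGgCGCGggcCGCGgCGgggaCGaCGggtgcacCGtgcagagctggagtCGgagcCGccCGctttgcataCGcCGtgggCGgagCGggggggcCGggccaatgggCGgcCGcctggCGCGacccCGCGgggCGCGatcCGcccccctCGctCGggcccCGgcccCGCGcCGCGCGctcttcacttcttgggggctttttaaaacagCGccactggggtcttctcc
HOXC4: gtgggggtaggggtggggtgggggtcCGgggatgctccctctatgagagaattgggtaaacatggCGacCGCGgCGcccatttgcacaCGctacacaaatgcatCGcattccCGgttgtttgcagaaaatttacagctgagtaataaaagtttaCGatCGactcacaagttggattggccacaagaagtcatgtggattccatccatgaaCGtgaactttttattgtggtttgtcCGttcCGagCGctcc
HOXD11: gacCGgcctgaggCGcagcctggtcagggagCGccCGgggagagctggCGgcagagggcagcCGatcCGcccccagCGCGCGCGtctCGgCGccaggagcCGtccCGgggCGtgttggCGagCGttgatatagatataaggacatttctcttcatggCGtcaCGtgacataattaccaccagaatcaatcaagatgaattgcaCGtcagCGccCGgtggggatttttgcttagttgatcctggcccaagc
HOXA2: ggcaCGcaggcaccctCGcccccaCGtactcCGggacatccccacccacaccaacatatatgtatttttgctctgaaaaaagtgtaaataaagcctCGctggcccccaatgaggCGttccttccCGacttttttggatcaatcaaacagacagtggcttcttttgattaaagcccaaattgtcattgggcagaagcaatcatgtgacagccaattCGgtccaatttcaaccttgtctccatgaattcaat
HOXD1: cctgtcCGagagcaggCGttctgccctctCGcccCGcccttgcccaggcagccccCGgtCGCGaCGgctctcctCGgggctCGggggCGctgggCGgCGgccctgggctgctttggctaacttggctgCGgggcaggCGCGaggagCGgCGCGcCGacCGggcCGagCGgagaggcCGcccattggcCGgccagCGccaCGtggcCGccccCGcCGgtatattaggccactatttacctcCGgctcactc
The HOXA3 stretch (chr7:27150951-27151200, minus strand) holds 26 CpG and lies inside the strongest start-site region of the clusters. That of HOXA13 (chr7:27200092-27200341, minus strand) holds 40, that of HOXC4 (chr12:54016638-54016887, plus strand), which HOXC5 shares, 14, and that of HOXD11 (chr2:176107030-176107279, plus strand) 23. Of the uncalled pair, HOXA2 (chr7:27102684-27102933, minus strand) holds 8 and HOXD1 (chr2:176188418-176188667, plus strand) 31. HOXD1, with no region within 1000 bp, thus has more CpG than 3 of the 4 called sequences. The regions that called HOXA13, HOXC4 and HOXD11 lie outside the printed bases, so those 3 sequences are near an open region and not inside it.

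Few listed HOX starts had an open region within 1000 bp, even where they were rich in CpG. CpG dinucleotides were counted in the 300 bp from 250 bp upstream of each start, over the 26 distinct listed HOX starts and 22012 distinct starts of all protein-coding genes. At or above the median count of 21, 3 of 15 HOX starts had a region in both lists (20%), against 91.4% of 11170 starts of all genes. Below the median it was 2 of 11 HOX starts (18.2%), against 51.4% of 10842. HOX starts without a region had a median of 22.5 CpG, with a range of 0 to 36, and HOX starts with a region in both lists had a median of 27, with a range of 13 to 44. Over all genes, starts without a region in both lists had a median of 5 and starts with one had 25. Several starts belong to the same gene, 7 of them to HOXA3, so they are not independent. Apart from HOXB1 and HOXC4, all the listed starts are in HOXA and HOXD. The CpG comparison therefore says little about HOXB and HOXC, where HOXB5, HOXB7, HOXB9 and HOXC8 were called without an entry.

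**Figure D1:**
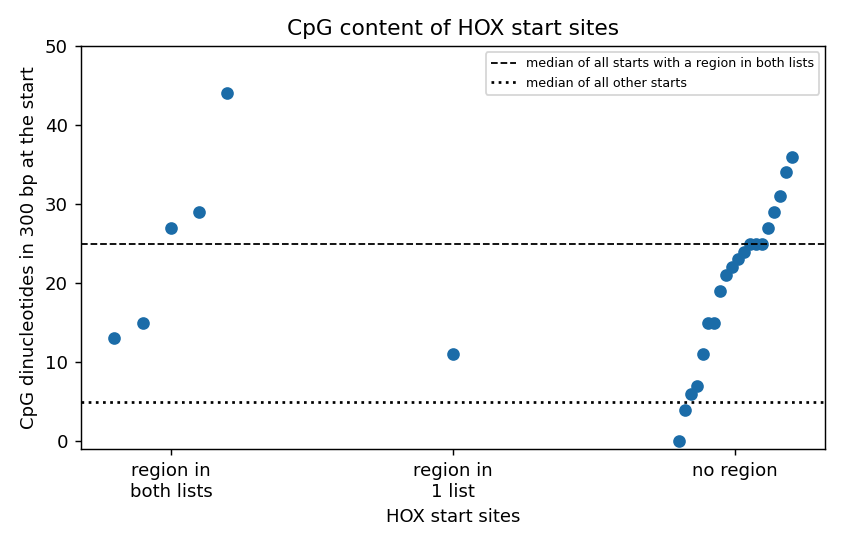
CpG dinucleotides in the 300 bp at each of 26 HOX starts (vertical axis), with starts grouped by whether a region lies within 1000 bp in both lists, in 1 list or in neither. Each point is a start, points are spread sideways for legibility, and the lines mark the medians over all protein-coding starts with a region in both lists (25, dashed) and without (5, dotted). Many HOX starts without a region lie near the dashed line.

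In the HOXA cluster HOXA3, HOXA11 and HOXA13 were called. HOXA3, needed for the pharyngeal arches and the neural crest in mice, had a region over an internal start (chr7:27150521-27151281 in R1) with a fold enrichment of 8.67 (R1) and 8.93 (R2). HOXA3 has 7 listed starts, and all the others had no region within 1000 bp in either list. The region lies between HOXA6 and HOXA7 and also overlaps the noncoding gene HOXA-AS3. Fold enrichment is the authors' value for the signal at a peak's summit over its local background, and the percentile of a fold is its rank within its own list. The region reached percentiles of 80.6 in R1 and 83.1 in R2, the highest of any HOX start. HOXA11, a limb and uterine patterning gene, had 2 weak regions just downstream of its start, of which the stronger reached 2.52 (R1) and 2.85 (R2). HOXA13, which patterns the hand and the urogenital tract, had a region 330 bp upstream of its start with folds of 2.86 and 3.61. That region also lies at the start of HOTTIP, a noncoding RNA of the cluster. HOXA2, HOXA4, HOXA5, HOXA6, HOXA7, HOXA9 and HOXA10 had no region within 1000 bp of a start in either list.

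In HOXB the called genes were HOXB5, HOXB7 and HOXB9. HOXB5 had a region of 1371 bp in R1 and 1293 bp in R2 over its start, with folds of 8.03 and 8.16 and 185 and 182 fragments over the summit. HOXB7 had a region over its start of fold 2.85 (R1) and 4.37 (R2), and a second one 805 bp upstream of fold 3.13 (R1) and 2.96 (R2). At HOXB9, a gene of the thoracic skeleton, folds were 4.18 in R1 and 3.97 in R2. HOXB1, a hindbrain patterning gene, had a region of fold 2.58 in R1 alone. HOXB2 was called in R2 alone, with a fold of 6.56, because the region there reached to 798 bp from the start in R2. The R1 region at the same place had a fold of 5.56 and ended short of the window. HOXB3, HOXB4, HOXB6, HOXB8 and HOXB13 had none, but they have no listed start and were judged at the upstream end of the interval alone. A region of folds 7.71 (R1) and 7.67 (R2) lay inside the HOXB6 interval, 1849 bp from that end. The HOXB3 interval held 5 shared regions. Whether any of these lies at an internal start could not be told.

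In HOXC the region 552 bp downstream of the start shared by HOXC4, HOXC5 and HOXC6 accounts for 3 of the 4 called genes. Its fold was 4.16 in R1 and 3.996 in R2, so a single region stands behind these 3 calls. With a window of 500 bp, or with the summit in the window, 1 HOXC gene was called, and at or above the median fold of each list 0. HOXC8, which patterns the thoracic vertebrae, had folds of 3.83 and 4.40 over its start. HOXC10 had a region of fold 2.80 in R1 alone, 980 bp upstream of the start. HOXC9, HOXC11, HOXC12 and HOXC13, the last a hair and nail keratin regulator, had none.

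In HOXD, HOXD11 was the single called gene, with a weak region 591 bp upstream of the start and folds of 2.80 in R1 and 2.61 in R2. The HOXD count was 0 with a window of 500 bp, with a −log10 q of at least 5 or 10, at or above the median fold of each list, and where the summit had to lie in the window. HOXD1, HOXD3, HOXD4, HOXD8, HOXD9, HOXD10, HOXD12 and HOXD13, the last the gene of synpolydactyly, had none. For HOXD13 this depends on the start used, since its listed start lies inside its interval. A region of folds 6.87 (R1) and 5.67 (R2) lay within 1000 bp of the interval's upstream end. That end served as the start for genes without an entry, and by it HOXD13 would have been called. By number, 2 of 12 genes of groups 1 to 4 were called, 5 of 11 of groups 5 to 8 and 4 of 16 of groups 9 to 13. The share over protein-coding genes was 74.3%. The 5 of the middle block are HOXB5, HOXB7, HOXC5, HOXC6 and HOXC8, and none of its 4 members in HOXA and HOXD was called. HOXC5 and HOXC6, with HOXC4 of the first block, rest on 1 shared region, so the block counts are not counts of separate regions. Groups 2, 10 and 12 were among those with no called member in any cluster.

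**Figure D2:**
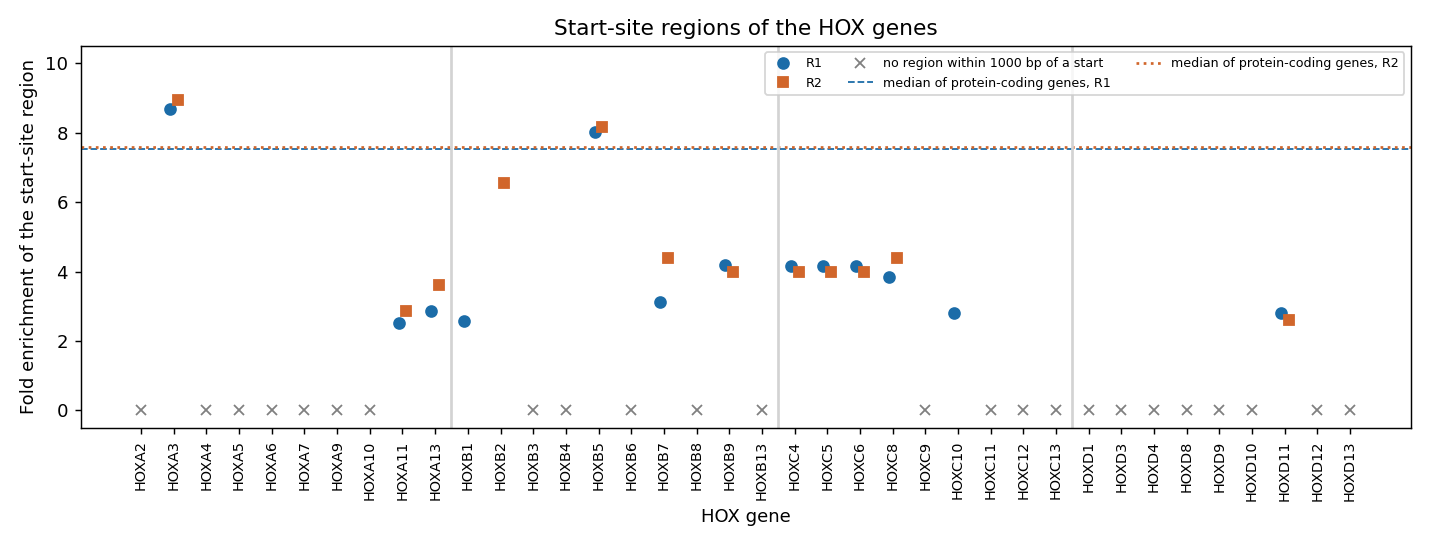
Fold enrichment (authors' values, vertical axis) of the strongest region within 1000 bp of a start for the HOX genes shown (horizontal axis, by cluster and number) in R1 (circles) and R2 (squares). Crosses mark genes with no region in either list and stand for no value, and the lines give the median over protein-coding genes called in both lists (7.52 in R1, 7.60 in R2). HOXA3 and HOXB5 alone lie above the lines.

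The called HOX starts were also weak by fold within their lists. Their median fold was 4.16 in R1 and 3.996 in R2, against 7.52 and 7.60 over the 11742 called protein-coding genes. The HOX medians are the values of the region that HOXC4, HOXC5 and HOXC6 share. Fold is relative to local background, which at HOXC8 was 20.4 (R1) and 20.6 (R2) fragments. By fragments over the summit, HOXA3, HOXB5 and HOXC8 exceeded the list median of 71, and the other called HOX genes did not. HOXA3 and HOXB5 were the 2 of 39 HOX genes whose region had at least the median fold of each list, against 58.9% of protein-coding genes. ATAC-seq of bulk nuclei cannot tell a region open in few cells from one weakly open in many. Start sites of HOX genes were a median of 3825 bp from the nearest shared region, against 0 bp over all protein-coding genes, and 14 of 39 HOX genes (35.9%) were more than 5000 bp from one, against 17.6%.

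The clusters held open regions all the same, and in each of the 4 the strongest lay between HOX genes. Joining overlapping R1 and R2 peaks gave 66 regions in the 4 windows, 46 of them in both lists (69.7%, against 80.8% of 151534 regions over all chromosomes). The 20 found in 1 list were weak. The R1 ones had folds between 1.78 and 3.14, and the R2 ones between 2.09 and 2.76. The 46 shared regions covered 5.59% of the windows, against 3.85% of chromosomes 1 to 22 and X, and numbered 66.9 per Mb against 41.6. They were somewhat weaker than shared regions in general, with a median percentile of 40.7 in R1 and 41.6 in R2 against 57.0 and 54.4. HOXB was the densest, with 99.9 shared regions per Mb against 61.0 on chromosome 17. HOXA had 61.2 against 39.9 on chromosome 7, HOXD 48.8 against 43.1 on chromosome 2, and HOXC 38.2 against 45.8 on chromosome 12.

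**Figure D3:**
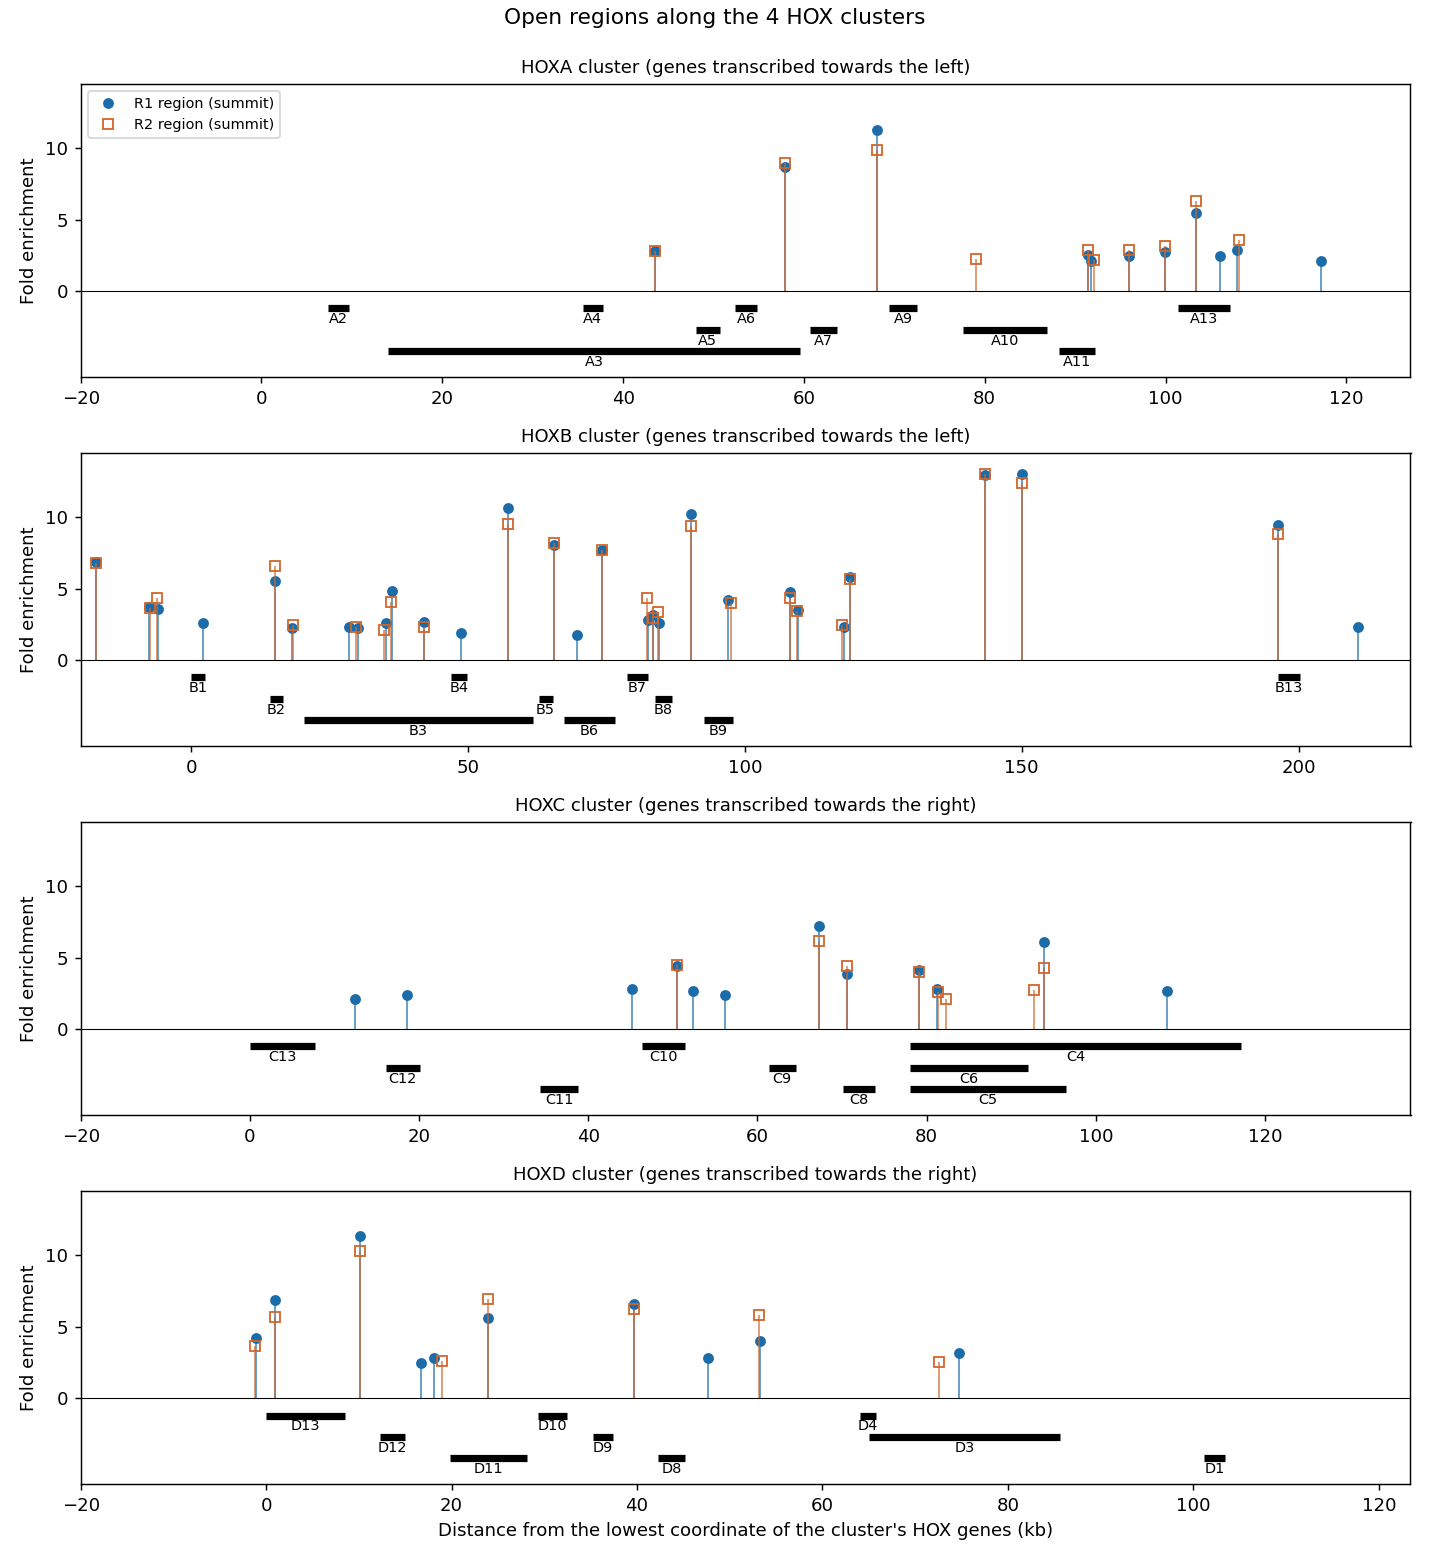
Fold enrichment (authors' values) at the summit of each region in the 4 HOX clusters against distance from the lowest coordinate of the cluster's HOX genes (kb), for R1 (filled circles) and R2 (open squares). Where several peaks of a list join into 1 region the strongest is drawn. Black bars are the gene intervals shown. The tallest stem of each cluster stands between bars, and the left of HOXA and HOXC and the right of HOXD are nearly empty.

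Of the 46 shared regions, 12 lay within 1000 bp of a HOX start, 15 elsewhere in a HOX gene interval, 10 in another gene and 9 between genes. The 12 at starts had a median percentile of 30.5 in R1 and 36.7 in R2, and the 34 others 47.8 and 42.3. Over all chromosomes the order was the other way round, since the 12534 shared regions at protein-coding starts had medians of 68.1 and 68.7 and the 109887 elsewhere 55.5 and 52.4. The 9 HOX regions between genes had medians of 66.8 and 61.3. Those elsewhere in a HOX interval had 48.1 and 40.5. The 10 in another gene had 33.0 and 36.9, close to those at starts, so the others were not all stronger. At or above percentile 90 by fold stood 5 of the shared HOX regions in R1 and 3 in R2, and none of them was at a HOX start.

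**Figure D4:**
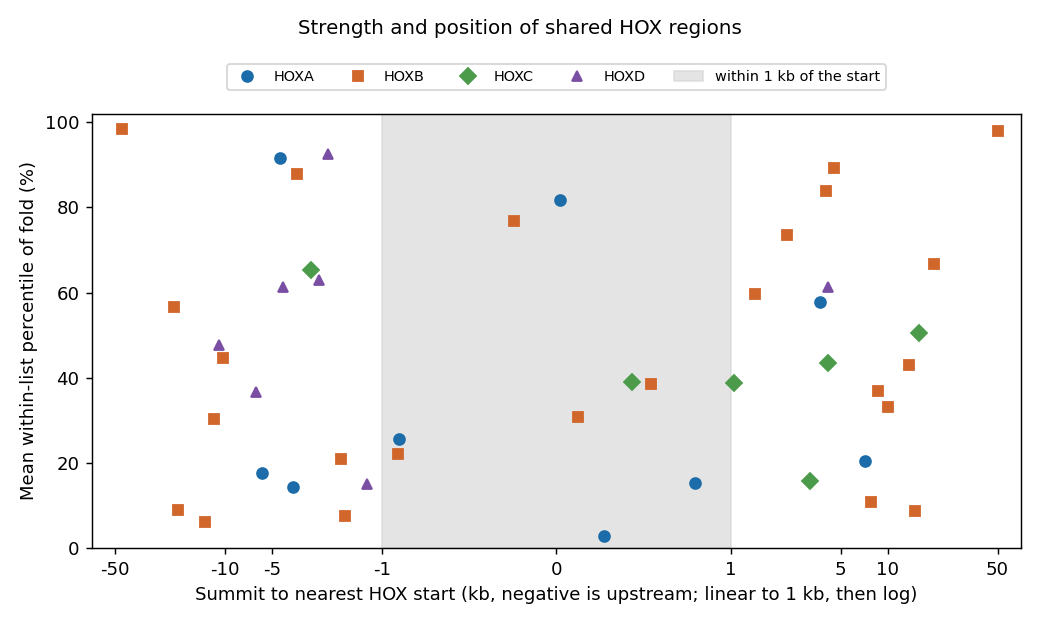
Mean within-list percentile of fold (vertical axis) of the 46 shared HOX regions against the distance from summit to nearest HOX start (kb, linear to 1 kb and logarithmic beyond, negative upstream), by cluster. The grey band is the 1 kb on each side of a start. HOXA3 at 81.9 and HOXB5 at 76.7 are the high points in the band, and the 6 highest points of all lie outside it. Start regions of HOXB2, HOXC4 and HOXD11 fall outside the band because their edge and not their summit is within 1 kb.

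In HOXA the strongest region was the 1021 bp between HOXA7 and HOXA9 (chr7:27160692-27161712), where the fold was 11.25 in R1 and 9.90 in R2. It began 4016 bp upstream of HOXA7 and ended 725 bp from the far end of HOXA9. After the HOXA3 start region came a 638 bp region inside HOXA13 (chr7:27196143-27196780), its summit 3678 bp downstream of the start, with folds of 5.43 and 6.27. No region of either list fell in the 63022 bp from the edge of the window to beyond HOXA4 (chr7:27072993-27136014), which hold HOXA2 and HOXA4 whole and most of the listed HOXA3 starts.

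In HOXB the strongest regions lay in the long stretch between HOXB9 and HOXB13, within the interval of the noncoding gene LINC02086. The region of 967 bp (chr17:48671435-48672401) reached a fold of 12.93 (R1) and 12.997 (R2) and lay 45076 bp from HOXB9. A neighbouring 997 bp region (chr17:48677985-48678981) had 13.03 and 12.37. Both stood at or above percentile 97.7 in each list. Next came a 1173 bp region in the HOXB3 interval between HOXB4 and HOXB5 (chr17:48585095-48586267), with folds of 10.65 and 9.52. It had 336 fragments over the summit in R1 and 298 in R2, the highest of the 4 clusters, on a local background of 30.7 and 30.4 fragments. A 1835 bp region between HOXB8 and HOXB9 (chr17:48618170-48620004) followed with folds of 10.2 and 9.36. The longest stretch without a region, 45276 bp (chr17:48678982-48724257), held no HOX gene.

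In HOXC the strongest was a 719 bp region between HOXC9 and HOXC8 (chr12:54005694-54006412), where the fold was 7.19 in R1 and 6.18 in R2. An 830 bp region in the HOXC4 and HOXC5 intervals (chr12:54032293-54033122) had 6.10 and 4.28, and a 682 bp region inside HOXC10 (chr12:53989058-53989739) had 4.45 and 4.49. No HOXC region reached percentile 90 of its list. No shared region lay in the first 70227 bp of the window (chr12:53918831-53989057), which hold HOXC13, HOXC12 and HOXC11 whole. R1 alone had 3 regions there, of folds 2.09, 2.37 and 2.80, and the longest stretch with no region of either list was 32222 bp and held HOXC13.

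In HOXD the strongest was the 1889 bp region between HOXD13 and HOXD12 (chr2:176096576-176098464), where the fold was 11.31 in R1 and 10.30 in R2, with 313 and 283 fragments over the summit. It lay 631 bp beyond the downstream end of HOXD13 and 1330 bp upstream of the HOXD12 start, so it is not at the HOXD13 start. Next came a 712 bp region between HOXD9 and HOXD8 (chr2:176126943-176127654), with 6.61 and 6.25, and an 825 bp region (chr2:176088057-176088881) with 6.87 and 5.67, which lies in the HOXD13 interval 3840 bp upstream of the listed start. From chr2:176141062 to 176210907, a stretch of 69846 bp with HOXD4, HOXD3 and HOXD1 whole, there was no shared region. R1 had a region of fold 3.14 and R2 another of 2.50 there, both in HOXD3. The stretches free of shared regions lay at the low-numbered end in HOXA and HOXD and at the high-numbered end in HOXC.

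Both lists had a region within 1000 bp of the downstream end of 6 of 39 HOX genes, against 21.2% of the 15812 protein-coding genes with a listed start. The 6 were HOXA9, HOXB2, HOXB8, HOXB13, HOXC10 and HOXD13. None of them was called at its start in both lists, although HOXB2 had a start region in R2 alone and HOXC10 in R1 alone. A downstream-end region without a start call in both lists was found for 3.29% of protein-coding genes, where far fewer genes lacked a start call than among HOX genes. Where either end of the gene interval counted, 16 of 39 HOX genes were called, against 73.9% of 19974 protein-coding genes. HOXB13, a prostate and tail-bud gene, had a 1616 bp region (chr17:48724258-48725873) over its downstream end where the fold was 9.45 in R1 and 8.80 in R2. The region also overlaps PRAC2 and covers the hairpin of MIR3185.

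The microRNAs of the clusters are shown by their mature sequences from RefSeq (GRCh38.p14), with the seed in capitals (bases 2 to 8), since miR-196 shares its seed across 3 clusters and is known to act on HOXB8 mRNA.
hsa-miR-196a-5p: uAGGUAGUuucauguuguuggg
hsa-miR-196b-5p: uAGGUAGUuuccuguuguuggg
hsa-miR-10a-5p: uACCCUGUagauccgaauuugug
hsa-miR-615-3p: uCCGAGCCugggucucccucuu
hsa-miR-3185: aGAAGAAGgcggucggucugcgg
Both miR-196 sequences carry the seed AGGUAGU. Of the 7 hairpins, MIR3185 alone had a region within 1000 bp in both lists, the one at the HOXB13 end, against 28.5% of 1558 hairpins. MIR196A2 had a region of fold 2.65 in R1 alone and MIR615 one of 6.10 in R1 alone, the R2 region there ending just outside the window. MIR10A, MIR10B, MIR196A1 and MIR196B had none, and were 5148, 9242, 3888 and 7768 bp from a shared region. Among the other noncoding RNAs of the clusters 3 of the 9 with a listed start were called, against 39.7% of 11383 genes that are not protein-coding. They were HOTTIP, HOXA11-AS and HOXB-AS1, the last with folds of 5.56 and 6.56 in the region inside HOXB2. HAGLR, HAGLROS and HOXA-AS2 were among the 6 with none. The other 7 of this list have no listed start.

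Among genes known to act with or on the HOX genes, the share with a region at a listed start varied by list. The HOX cofactors, at 71.4%, and the upstream regulators, at 66.7%, lay near the share of protein-coding genes. All these lists are short, so a single gene moves a share by several points. All 7 trithorax and H3K27 demethylase genes with a listed start were called, with 15 of 16 Polycomb genes, 5 of 7 HOX cofactor genes, 8 of 12 upstream regulators and 2 of 4 cluster-edge and ParaHox genes, against 74.3% of protein-coding genes. RBBP5, a subunit of the H3K4 methyltransferase complexes, reached folds of 14.96 (R1) and 13.04 (R2), and WDR5, another, 10.41 and 9.27. Of the Polycomb genes EZH1, a catalytic subunit of PRC2, had 11.96 and 12.36 and PHC3 had 10.65 and 9.92, while PCGF2 had a region in R2 alone. Among the cofactors, which bind DNA together with HOX proteins, PBX4 had 8.47 and 7.84 and PKNOX1 7.20 and 6.20. PBX3 had no region at a listed start, and MEIS2 one of fold 4.32 in R2 alone. Of the upstream regulators the retinoic acid receptor genes RARB and RARG had 8.87 and 10.06, and 8.36 and 8.46, in the R1 and R2 lists. CDX2, CDX4 and CYP26C1 had none, and ALDH1A2, a retinoic acid synthesis gene, had one of fold 2.35 in R1 alone. The ParaHox gene GSX2 had folds of 7.44 and 7.01 and GSX1 5.12 and 4.66, while EVX1 and EVX2, which flank HOXA and HOXD, had none. Of the pigment epithelium markers, 4 of 7 with a listed start were called (57.1%), against 74.3% of protein-coding genes. MITF, LRAT, RLBP1 and OTX2 had a region, that of OTX2 with folds of 3.08 (R1) and 2.59 (R2), and RPE65, TYR and TYRP1 had none. Of 8 mesenchymal markers PDGFRB alone had a listed start, and it was called. Since most protein-coding genes are called, these few markers cannot check the labelled cell type.

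Short motifs were searched on both strands of the 300 bp at each listed start. TGATNNAT, bound by HOX with PBX, was in 3 of 26 HOX windows (11.5%), at HOXA2 and HOXD11, whose sequences are shown above, and at HOXB1, against 5.22% of 22012 windows. GGAATG, the TEAD motif, was in 7 (26.9%) against 12.2%, TATAAA, the TATA box, in 5 (19.2%) against 9.49%, and the CTCF core motif in 1 (3.85%) against 2.53%. TGANTCA, the AP-1 motif, was in 0 against 6.16%. These letters were looked for at starts alone, most of which had no region, and hits of different motifs in the 250 bases upstream did not overlap. Apart from HOXB1 and HOXC4, the HOX windows searched were all in HOXA and HOXD.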

How the data were processed

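ATAC-seq libraries of wild-type hTERT-RPE1 cells (R1 and R2, 3 libraries each) were made by nuclei isolation, Tn5 tagmentation, PCR and size selection, per the labels' protocols. For each set the authors deposited a single merged peak list, on hg38 per the submitters' processing notes. Which aligner, peak caller, settings or Tn5 shift were used is not given in the sources used here. Each deposited peak has a fold (a ratio over local background), a −log10 p, a −log10 q and a summit offset. These were used as deposited and ranked within a list. Depth of single libraries is not given in the sources used here. Fragments over a summit were recovered on the reading that the fold is (pileup + 1)/(background + 1) and that the p-value is a Poisson tail. A whole number gave the deposited value within 0.001 for all 63 R1 and 50 R2 peaks of the HOX windows. This relation is inferred from the values, which do not show whether the unit is fragments, reads or cut ends. Medians of fragments leave out peaks with a −log10 p of 300 or more.

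Peaks of both lists on chromosomes 1 to 22 and X were joined where they overlapped by at least 1 bp. Genes and intervals came from the RefSeq table, and starts, strands and sequences from the RefSeq promoter table, both GRCh38.p14. The plan gave genes without a listed start both ends of the interval. For the 19 such HOX genes the upstream end was used, since the strand is shared within a cluster. Regions per Mb and covered shares over a chromosome use the span from its first to its last peak. Percentages beside HOX counts are over all genes tested. The HOX genes, the other lists and the naming rule (in each cluster up to 4 called genes and 3 shared regions by mean percentile, all 1-list and uncalled genes, and in other lists the 2 best and up to 3 with none) were chosen with earlier results of these data known. Where a printed sequence or listed start was missing the next gene with an entry was taken, and regions and genes named beside the rule were chosen after their values were seen. Comparing starts at or above the median CpG count was also added after seeing the data. No test was made, since each list pools its libraries. The scripts were tested on simulated data. Tools were pandas 2.3.3, numpy 2.4.6, scipy 1.17.1 and, for figures, matplotlib 3.10.9, under Python 3.11.15. A member enters the counts and is not reported here by itself.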

Additional observations from a re-analysis of the deposited data

How the results depend on the processing

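Of 39 HOX genes, 11 were called at a start in both lists. The count was 7 with 500 bp windows, 7 at −log10 q of at least 10, 7 where the summit had to lie in the window and 2 where both peaks had at least the median fold of their list. It was 6 where the 20 genes with a listed start alone were used, an alternative chosen after seeing the data that has fewer genes by construction. Over protein-coding genes the share was 71.9% with 500 bp windows, 70.4% at −log10 q of at least 10 and 58.9% at or above the median fold. In the remaining 6 alternatives the HOX count lay between 9 and 16 of 39, against shares between 72.4% and 77.4% of protein-coding genes. No such share is given for the summit setting. The 46 shared regions were 28 at −log10 q of at least 10 and from 35 to 57 in the other alternatives. Their share of the windows, 5.59%, came to 4.65% and 3.94% with −log10 q minimums of 5 and 10, and to 6.62% with no flank and 5.04% with 50000 bp flanks. The 3.85% over all chromosomes was computed without a q minimum. It is therefore no comparison for the counts and shares at minimums of 5 and 10. At or above the median fold the counts fell to 3 HOX cofactors, 4 upstream regulators, 1 cluster-edge or ParaHox gene and 1 noncoding RNA, and the noncoding RNAs were also 1 at −log10 q of at least 10. The causes of these changes were not tested beyond what each setting removes. Weak peaks carry several calls, since HOXA11 and HOXD11 had folds under 3 in each list. No paired analysis was possible because each list pools its 3 libraries, and no library could be left out for the same reason.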
